A study of Mus musculus with 2 samples.

Results

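The 6 genes described here are Ly6a, Ly6c1, Ly6c2, Ly6e, Cd44 and Cd24a, chosen by name out of 32285 genes counted in single thymocytes. They were chosen because they encode surface proteins used to grade the maturation and activation of T cells. Ly6a encodes Sca-1, Ly6c1 and Ly6c2 encode the Ly6C antigens, and Ly6e encodes a further member of the Ly6 family. Ly6 proteins are small, folded by disulphide bonds and held in the membrane by a glycosylphosphatidylinositol anchor. Cd44 encodes the receptor for hyaluronan, which memory and effector T cells carry at high levels. Cd24a encodes heat-stable antigen, a heavily glycosylated anchored protein that immature thymocytes carry and mature T cells lose. In invariant natural killer T (iNKT) cells, which recognise lipids on CD1d, loss of CD24 and gain of CD44 and then NK1.1 mark successive stages of thymic development. Ly6a and several of its relatives are also known as genes induced by interferons.

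The cells came from the thymi of C57BL/6 control (Ctrl) mice and of T-KO mice, in which Kidins220 flanked by loxP sites was deleted in T cells by a Cre under the proximal Lck promoter. Thymi of 4 mice were pooled per genotype, and cells were sorted, in 2 parallel rounds, as stage 0 iNKT cells (TCRβ+ CD1d tetramer+ CD24+ NK1.1-) or stage 3 iNKT cells (TCRβ+ CD1d tetramer+ NK1.1+ CD24- CD44+). CD24 and CD44 protein were thus part of the sort, so Cd24a and Cd44 transcripts are expected to follow it, and no difference in them is independent of the gates. Each of the 8 populations was stained with its own hashtag antibody, and all were pooled into 1 droplet library read from the 5′ end of transcripts. The methods give a wide range of ages for the mice of all experiments and none for this sort.

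Of 16179 cell barcodes, all distinct, 12147 had 1000 or more genes and a mitochondrial share of no more than 5%, and 10007 of these carried 1 hashtag by the rule of at least 80% of at least 10 hashtag counts. The hashtag counts lay on the rows numbered 11 to 18, and the labels number the hashtags 1 to 8. The 8 rows were therefore treated as unlabelled populations, none was called a stage or a genotype, and T-KO cells were not set against Ctrl cells. Odd rows held 4249 cells and even rows 5758. The level of a gene is its count of unique molecular identifiers (UMIs) per 1000000 gene UMIs summed over a group of cells (CPM). The design held 2 replicate populations per stage and genotype, but the rows could not be matched to them, so no test was made: levels are given row by row, and a difference is described by whether the rows overlap. Intervals are at 95% and cover counting error only. Gene UMIs per row ran from 2283162 to 14601545, and the median per cell was 6500 to 8068 in the odd rows against 3258 to 3804 in the even rows.

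The cells of the odd rows were not all T cells. They were divided by the first match of at least 2 UMIs of Cd79a (part of the B cell receptor; 810 cells), 5 of Cst3 (cystatin C, abundant in dendritic and myeloid cells; 972), 1 of Rag1 (the recombinase of CD4 CD8 double-positive thymocytes; 418) and 2 of Ikzf2 (Helios, raised in thymocytes that have just received T cell receptor signals; 1106), which left 943 cells. Other markers followed these classes. The B cell gene Ms4a1 (CD20) lay between 526 and 687 CPM in the Cd79a cells and at most at 3.82 CPM in the other 4 classes, Itgax (CD11c) lay between 118 and 166 CPM in the Cst3 cells, Cd8b1 was highest in the Rag1 cells, and Nr4a1, a target of receptor signals, lay between 244 and 355 CPM in the Ikzf2 cells. The Cd79a share of the cells differed between rows, from 9.95% in row 17 to 23.7% in row 13. Even rows were divided into 1051 cells with at least 4 UMIs of the chemokine gene Ccl5, 538 cells with at least 2 UMIs of Izumo1r (folate receptor 4) and none of Ccl5, and 4169 cells of neither kind. Klrb1c, which encodes NK1.1, lay between 328 and 444 CPM in the even rows and between 4.78 and 6.57 CPM in the odd rows. Kidins220 itself was low in all 8 rows, from 13.9 to 35.2 CPM, and a 5′ count does not show whether the floxed part is present.

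The Ly6 members lie side by side on chromosome 15 of mm10. Ly6e (ENSMUSG00000022587) is on the plus strand at chr15:74955051-74959905, and Ly6a (ENSMUSG00000075602), Ly6c1 (ENSMUSG00000079018) and Ly6c2 (ENSMUSG00000022584) follow on the minus strand at chr15:74994877-74998031, chr15:75044018-75048830 and chr15:75108158-75111970. The 4 genes span 156920 bases. Cd44 (ENSMUSG00000005087) is at chr2:102811141-102901665 on the minus strand and Cd24a (ENSMUSG00000047139) at chr10:43578284-43584265 on the plus strand. Because Ly6c1 and Ly6c2 are close copies, their transcripts were searched for stretches of 91 bases found in another gene, which a read of that length could not tell apart. Such stretches made up 12.6% of those of Ly6c1, 7.12% of those of Ly6c2 and 2.14% of those of Ly6a, and none of those of Ly6e or Cd44. How many reads fall in these stretches was not measured, so counts of Ly6c1 and Ly6c2 are uncertain to an unknown extent.

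The promoters of this pair are shown because the copies gave very different counts in the same cells. Each is a RefSeq window on mm10 from 250 bases before to 50 bases after a start site, read on the minus strand, at chr15:75048788-75049087 for Ly6c1 and chr15:75111922-75112221 for Ly6c2. Each gene had 2 such windows, and the pair with the highest alignment score is shown, so the likeness given is that of the best-matching pair. Capitals mark bases that differ from the other copy or have no partner in the alignment.
Ly6c1: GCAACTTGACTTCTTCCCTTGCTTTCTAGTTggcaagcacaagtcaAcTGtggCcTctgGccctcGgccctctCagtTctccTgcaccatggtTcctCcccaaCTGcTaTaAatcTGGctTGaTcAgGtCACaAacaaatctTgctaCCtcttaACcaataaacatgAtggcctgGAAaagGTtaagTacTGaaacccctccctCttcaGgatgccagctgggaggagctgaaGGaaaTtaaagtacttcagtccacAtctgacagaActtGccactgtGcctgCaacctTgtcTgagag
Ly6c2: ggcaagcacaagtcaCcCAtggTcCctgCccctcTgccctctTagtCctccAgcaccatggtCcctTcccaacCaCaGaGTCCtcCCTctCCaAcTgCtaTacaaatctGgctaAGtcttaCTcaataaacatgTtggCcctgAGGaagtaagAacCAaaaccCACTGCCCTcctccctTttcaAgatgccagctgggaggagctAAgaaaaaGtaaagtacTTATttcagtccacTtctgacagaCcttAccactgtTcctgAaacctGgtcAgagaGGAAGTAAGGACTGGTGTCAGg
Both copies had a base in 259 columns of the alignment, and 213 of these, or 82.2%, were identical. Where the windows overlap, another 51 columns held a base of 1 copy only. Neither window, nor that of Cd44, held 2 copies of GAAA with 2 bases between them (GAAA, NN, GAAA), a core of the interferon-stimulated response element, on either strand. Among 32851 promoter windows of the table, 3.44% held it. The table held windows for 3 of the 6 members.

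Ly6c2 and Cd44 were higher and Cd24a was lower in every even row than in every odd row. In the odd rows 11, 13, 15 and 17, Ly6c2 stood at 379, 255, 178 and 67.8 CPM, and in the even rows 12, 14, 16 and 18 at 2353, 2222, 1917 and 2121 CPM. No even row came near an odd one, and the odd rows spread more widely among themselves than the even rows did. Cd44 stood at 90.4, 60.5, 48.3 and 40.7 CPM in the odd rows and at 143, 163, 145 and 152 CPM in the even rows. Cd24a ran the other way, at 313, 365, 354 and 361 CPM in the odd rows and 34.2, 26.7, 30.2 and 23.3 CPM in the even rows. On the log2(CPM + 10) scale used for all ratios, the medians of the even rows differed from those of the odd rows by 3.27 for Ly6c2 (9.65-fold), 1.30 for Cd44 (2.46-fold) and -3.26 for Cd24a (9.56-fold lower). Of 7304 genes that reached 20 CPM, 7.61% were at least 2-fold higher and 10.4% at least 2-fold lower in the even rows with no overlap. Among the members, 3 of 6 met that rule, 2 higher and 1 lower.

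Ly6e was also higher in every even row, but by little. It stood at 2356, 2377, 2102 and 2140 CPM in the odd rows and at 2586, 2750, 2946 and 3337 CPM in the even rows, a log2 difference of 0.34. Ranges that did not overlap were common at any size of difference, with 28.2% of genes higher and 36.4% lower in the even rows. Ly6a did not separate the rows. Its levels were 711, 508, 329 and 237 CPM in the odd rows and 342, 322, 357 and 397 CPM in the even rows, so the odd rows lay on both sides of the even ones. Ly6c1 was close to the detection limit throughout, between 3.28 and 7.78 CPM, with 180 UMIs in all odd rows and 117 in all even rows. It did not reach 20 CPM in any row and was not counted in the comparisons, except where the counts of members were recomputed under other settings.

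**Figure D1:**
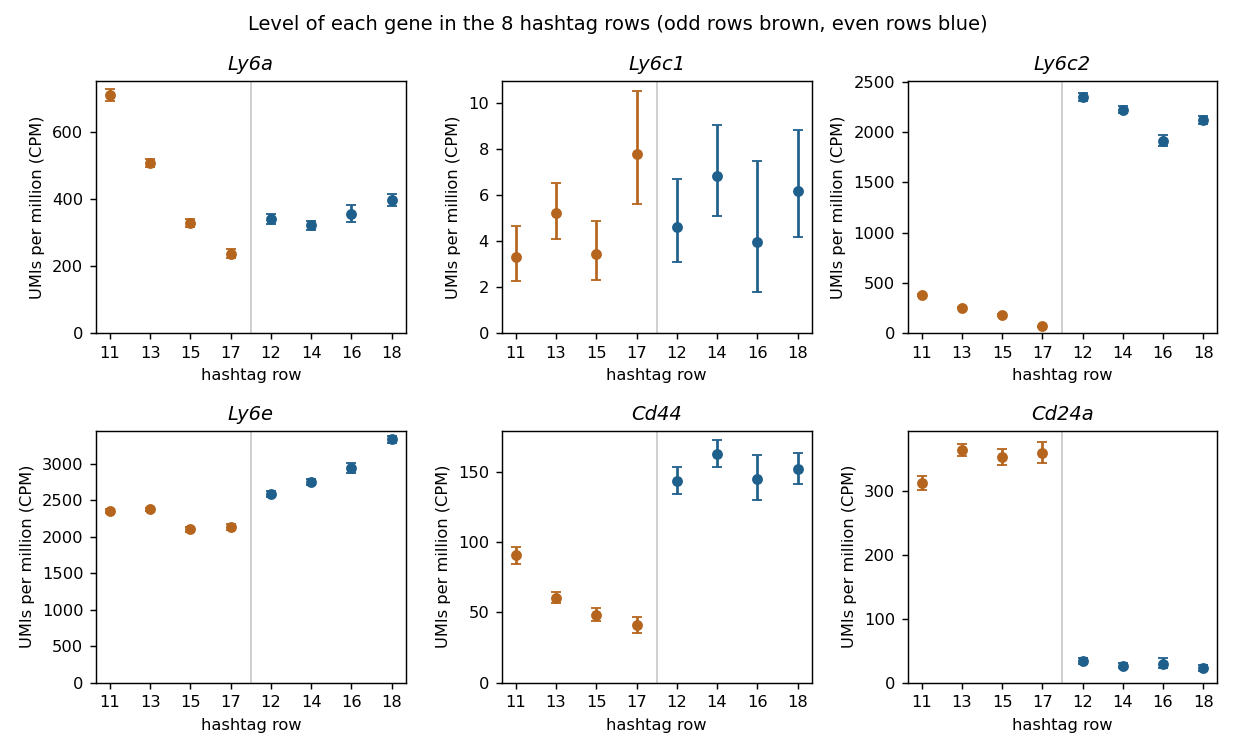
Each panel plots 1 gene in the 8 hashtag rows, odd rows in brown and even rows in blue, in CPM on a linear axis from 0, with 95% Poisson intervals. Ly6c2, Cd44 and Cd24a separate odd from even rows, Ly6a overlaps, and Ly6c1 stays below 8 CPM.

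Ly6a in the odd rows lay mostly in the Cd79a and Cst3 cells. Of 18523 Ly6a UMIs in the odd rows, 82.0% (Clopper-Pearson interval 81.5 to 82.6) lay in the Cd79a cells and 14.4% (13.9 to 14.9) in the Cst3 cells, which left 668 UMIs in the other 2467 cells. In rows 11, 13, 15 and 17, Ly6a stood at 2528, 2220, 2521 and 2250 CPM in the Cd79a cells and at 322, 215, 179 and 160 CPM in the Cst3 cells. These values overlap nowhere with the 3 remaining classes. Ikzf2 cells held 42.4, 29.1, 17.5 and 15.9 CPM, Rag1 cells 23.0, 22.8, 18.1 and 28.4 CPM, and the remaining cells 52.2, 43.5, 38.6 and 60.1 CPM. The ranges of the Ikzf2 and Rag1 cells overlapped. A Cd79a cell had a median of 14 Ly6a UMIs, and the highest had 178.

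After each cell was thinned to 2000 UMIs, which left out 216 cells of the odd and 552 of the even rows, 92.3% of the Cd79a cells had a Ly6a UMI. The share was 23.6% in the Cst3 cells, 9.06% in the remaining cells, 4.94% (3.71 to 6.43) in the Ikzf2 cells and 4.11% (2.37 to 6.59) in the Rag1 cells. Unthinned, the last 2 classes stood at 14.1% and 20.6%, with median depths of 5517.5 and 13561.5 UMIs. The share in the Ikzf2 cells was within the interval of the Rag1 cells, and no difference between these classes is read from it. Free RNA was not removed from these counts, and its part in the low shares was not tested.

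Cd44 followed the same division. Together the Cd79a and Cst3 cells held 41.4% and 47.9% of its 2409 UMIs in the odd rows. Its level was between 145 and 165 CPM in the Cd79a cells and between 95.7 and 117 CPM in the Cst3 cells. The Rag1 cells of rows 11, 13, 15 and 17 held 6.14, 3.33, 2.82 and 5.70 CPM, and the Ikzf2 cells 19.5, 13.97, 8.80 and 7.38 CPM. A Cd44 UMI was found, after thinning, in 27.4% of the Cd79a cells, 2.94% of the Ikzf2 cells and 0.771% (0.159 to 2.24) of the Rag1 cells. Unthinned, these shares were 57.0%, 7.05% and 4.31%.

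Cd24a was the member that the classes did not divide. Its lowest level over rows and classes of the odd rows was 285 CPM, in the Cst3 cells, and its highest 431 CPM, in the Rag1 cells, and all 5 classes overlapped their neighbours in order. Within the Cst3 cells, those with a UMI of Xcr1, a marker of cross-presenting dendritic cells, held 406 to 474 CPM, and those without Xcr1 and with fewer than 2 Siglech UMIs 203 to 357 CPM. This split was made with the data in view. Thinned shares of cells with a Cd24a UMI were 39.2% in the Ikzf2 cells and 50.9% in the Rag1 cells, against 3.44% to 5.19% in the 3 classes of the even rows.

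**Figure D2:**
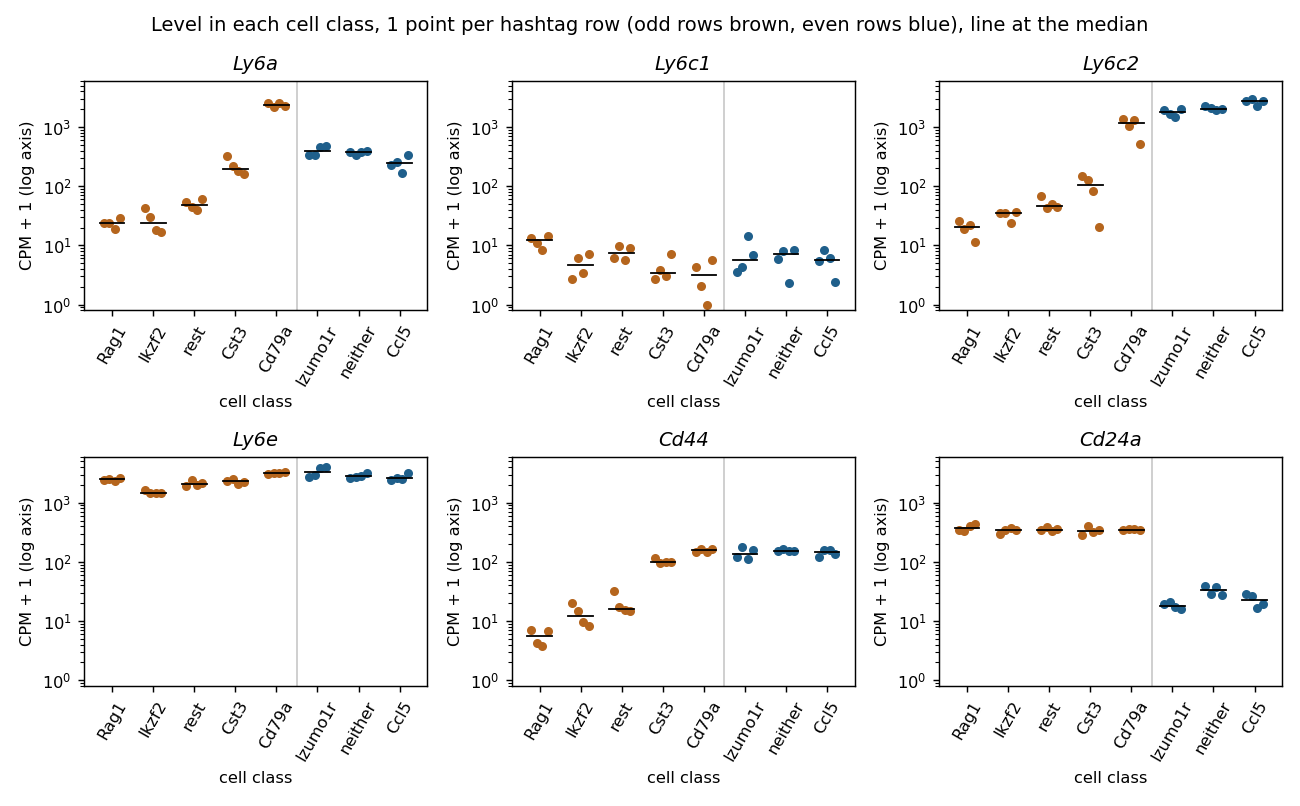
Levels of the 6 genes in 8 cell classes, as CPM + 1 on a log axis, with 1 point per hashtag row and a line at the median of the 4 rows (odd rows brown, even rows blue). Ly6a and Cd44 are low in the Rag1, Ikzf2 and remaining cells of the odd rows, Cd24a is near 350 CPM in all classes of the odd rows, and Ly6c2 is at least 1475 CPM in every class of the even rows.

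With the Cd79a and Cst3 cells set aside, the contrast between even and odd rows widened for the Ly6 genes and Cd44. The odd rows 11, 13, 15 and 17 then held 23.7 to 43.2 CPM of Ly6a, and the log2 difference, which had been -0.25 with overlapping rows over all cells, became 3.11 with no overlap. For Ly6c2 it became 5.71, for Cd44 2.96 and for Ly6e 0.55, while that of Cd24a was -3.27. Leaving out only the Cd79a cells gave 2.04 for Ly6a and 5.13 for Ly6c2. For neither of these settings was the share of all genes without overlap counted. Against the Ikzf2 cells alone, the even rows were higher by 3.43 for Ly6a, 5.61 for Ly6c2, 0.94 for Ly6e and 2.89 for Cd44, and lower by 3.19 for Cd24a. In that comparison 7.19% of 7370 genes were at least 2-fold higher and 10% at least 2-fold lower with no overlap, against 3 of 6 members higher and 1 lower. These settings were added with the data in view.

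Most of the Ly6c2 in the odd rows sat in a small number of cells. In rows 11, 13, 15 and 17, the Cd79a cells held 1356, 1044, 1297 and 522 CPM, and they carried 79.0% (78.2 to 79.8) of the 9332 UMIs. Among the 810 Cd79a cells, 102 had at least 100 UMIs of Jchain, the joining chain of secreted IgA and IgM that plasma cells make in bulk. Those 102 cells held 4896 of 7373 Ly6c2 UMIs, or 66.4% (65.3 to 67.5), at 2597 CPM (2524 to 2670). They also carried Sdc1 (syndecan-1, a plasma cell marker) at 149 CPM, against 3.31 CPM in the other Cd79a cells, and Ms4a1 at 49.3 CPM against 793 CPM. Their median depth was 18047.5 UMIs, against 5508.5 in the other Cd79a cells. A Ly6c2 UMI was found in 87.3% of them, and in 63.7% (53.6 to 73.0) at 2000 UMIs per cell. Ly6c2 stood at 403 to 762 CPM in the other Cd79a cells over the 4 rows. Row 17, where the Cd79a cells were lowest in Ly6c2, held 1 of the 102 cells.

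As shares of all UMIs, Ly6a, Ly6e and Cd44 went the other way in these deeper cells. The Jchain-high cells held 1310 CPM of Ly6a (1259 to 1363), against 2239 to 3143 CPM over the rows in the other Cd79a cells. Ly6e was 1437 CPM (1384 to 1492), against 3409 to 3930 CPM, and Cd44 was 75.3 CPM (63.4 to 88.8), against 160 to 202 CPM. Cd24a was 225 CPM (204 to 247), below the 350 to 420 CPM of the rest. Unthinned, a Cd44 UMI was found in 67.6% of the Jchain-high cells and 55.5% of the other Cd79a cells. At equal depth these shares were 12.7% and 29.5%. The lower levels are thus relative to the total of each cell. Counted UMIs per cell were not fewer for Ly6a or Ly6e. The 102 cells held 2470 of the 15192 Ly6a UMIs of all 810 Cd79a cells. They held 2710 Ly6e UMIs, against 17453 in the other 708 cells. What sets the greater depth of these cells was not tested.

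A second small set lay in the Cst3 cells. Of 972 such cells, 23 had at least 2 UMIs of Siglech, a lectin gene of plasmacytoid dendritic cells, and they held 617 of 1239 Ly6c2 UMIs (49.8%, 47.0 to 52.6) at 3131 CPM (2889 to 3389). In the 334 cells with Xcr1, Ly6c2 lay between 15.1 and 37.0 CPM over the rows. A Ly6c2 UMI was found in 87.0% of the 23 cells and 5.39% of the 334 cells at equal depth. Ly6a ran opposite, at 122 CPM (78.0 to 181) in the Siglech cells and 209 to 328 CPM in the Xcr1 cells. Both splits were added after the data had been seen.

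**Figure D3:**
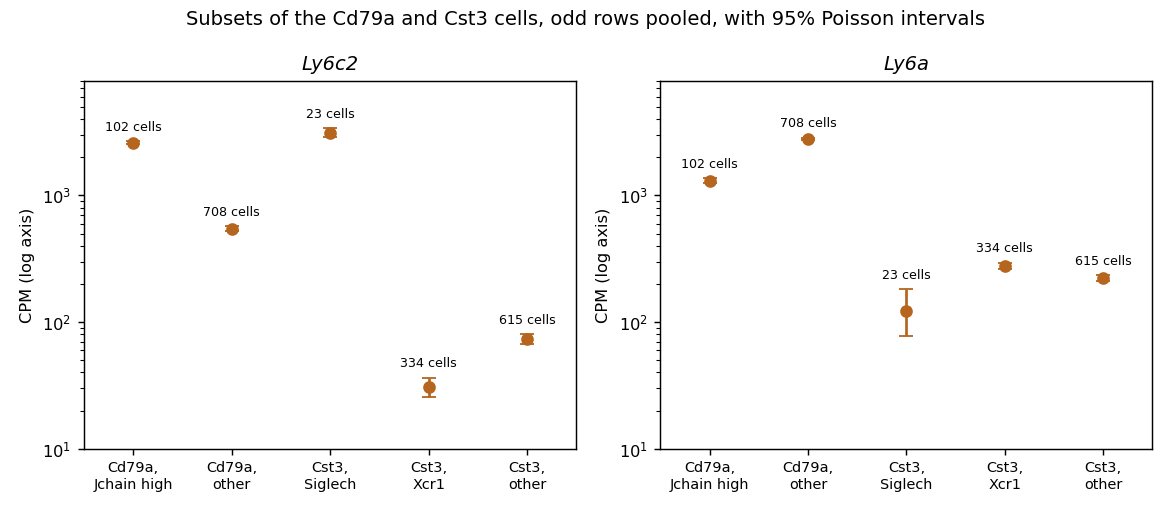
Ly6c2 (left) and Ly6a (right) in subsets of the Cd79a and Cst3 cells of the odd rows, pooled over rows, as CPM on a log axis with 95% Poisson intervals and the number of cells. Ly6c2 is near 2600 CPM in the 102 Jchain-high cells and near 3100 CPM in the 23 Siglech cells, while Ly6a is highest in the other Cd79a cells.

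Among T lineage cells of the odd rows, Ly6e was lower in the Ikzf2 cells than in the Rag1 cells of the same row. It stood at 2410, 2557, 2331 and 2586 CPM in the Rag1 cells of rows 11, 13, 15 and 17 and at 1622, 1481, 1485 and 1467 CPM in the Ikzf2 cells. The groups did not overlap, and the log2 difference was -0.72. Ikzf2 cells had the lowest Ly6e of the 8 classes. No member met the rule of a 2-fold median with all 4 rows in the same direction, which 5.7% of 7014 genes met upward and 0.784% downward. At any size, 32.8% of genes were higher and 24.9% lower in all 4 rows. With cells of at most 4000 genes the Ly6e difference was -1.21, with cells thinned to 2000 UMIs -1.08 as a mean of per-cell levels -1.12 and with classes called on thinned counts -1.69, and each of these passed 2-fold.

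The cells within the class were unequal. Of the Ikzf2 cells, 54.4% had at least 3 Ly6e UMIs and 27.0% at least 10, and the median was 3. The Rag1 cells had a median of 33.5 at a greater depth. Thinned to one depth, 69.8% (66.9 to 72.6) of the Ikzf2 cells and 97.4% (95.3 to 98.8) of the Rag1 cells had a Ly6e UMI, and the other 6 classes lay between 84.4% and 99.4%. Unthinned, the shares in the Ikzf2 and Rag1 cells were 87.0% and 99.3%. The Rag1 cells of row 11 were shallow, with a median of 3684.5 UMIs against 14409 to 15274 in the other odd rows, and Ly6e was lower in the Ikzf2 cells in row 11 as in the rest.

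The other members moved little between these classes. Ly6c2 was higher in the Ikzf2 cells in all 4 rows, at 34.8, 34.4, 22.9 and 35.8 CPM against 24.6, 17.6, 20.9 and 10.4 CPM, but at equal depth the log2 difference of 0.53 fell to 0.00. Ly6a was higher in 2 rows and lower in the other 2, and Cd24a was lower in 3 of 4 rows (-0.19). Cd44 was higher in all 4 rows by 0.70, at levels under the 20 CPM limit. In the same comparison 9 of 16 tested genes of a list of iNKT maturation genes were at least 2-fold higher and 2 lower, with a median log2 difference of 1.18 against 0.05 over all genes. Those higher included Cd5, which dampens receptor signals, by 2.78, Cd69, which keeps cells in the thymus, by 1.68, and the class I gene H2-K1 by 1.63. Those lower were Cd8a and Cd8b1, which encode the chains of CD8.

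The remaining cells of the odd rows, with neither Rag1 nor 2 UMIs of Ikzf2, were above the Ikzf2 cells in Ly6a (log2 difference 0.64), Ly6c2 (0.52), Ly6e (0.50) and Cd44 (0.42) in all 4 rows. All of these are under 2-fold, but with classes called on counts thinned to 2000 UMIs they were 1.61 for Ly6a, 1.72 for Ly6c2 (not higher in all 4 rows), 1.55 for Ly6e and 0.41 for Cd44. In the classes as first called, 17% of 7023 genes were higher and 20.4% lower in all 4 rows at any size. No member met the 2-fold rule, which 0.299% of genes met upward and 1.58% downward. Ly6e stood at 1928, 2440, 1983 and 2197 CPM in the remaining cells. The class was mixed by construction, and its median depth differed between rows, from 2859 UMIs in row 11 to 7120 in row 13.

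In the even rows, Ccl5 cells were the higher class in Ly6c2 and the lower class in Ly6a and Ly6e. Ly6c2 stood at 2775, 2923, 2299 and 2774 CPM in the Ccl5 cells of rows 12, 14, 16 and 18 and at 1968, 1650, 1475 and 2037 CPM in the Izumo1r cells. These ranges did not overlap. The cells of neither kind, at 1925 to 2252 CPM, overlapped the Izumo1r cells and lay below the Ccl5 cells. After thinning, 92.6% (90.8 to 94.1) of the Ccl5 cells and 72.7% (68.7 to 76.5) of the Izumo1r cells had a Ly6c2 UMI. Unthinned the shares were 95.6% and 79.0%, at median depths of 3533 and 3783.5 UMIs, and the Rag1 cells of the odd rows gave 6.17% after thinning.

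Ly6a was 232, 251, 169 and 334 CPM in the Ccl5 cells and 331, 336, 460 and 477 CPM in the Izumo1r cells. It was lower in the Ccl5 cells of each row, although row 18 of the first class exceeded row 12 of the second. Ly6e was lower in the Ccl5 cells in each row as well, at 2428, 2636, 2509 and 3146 CPM against 2757, 2893, 3836 and 4050 CPM. Cd44 was not divided: it was 122, 159, 159 and 137 CPM in the Ccl5 cells and 120, 179, 109 and 156 CPM in the Izumo1r cells. Cd24a stayed between 14.99 and 28.2 CPM in both.

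As log2 differences of Ccl5 over Izumo1r cells, these came to 0.57 for Ly6c2, -0.50 for Ly6a, -0.27 for Ly6e, -0.07 for Cd44 and 0.20 for Cd24a. No member reached 2-fold, and few genes did: by the same rule, 0.513% of 6430 were at least 2-fold higher and 0.28% at least 2-fold lower. At any size, 9.64% were higher and 13.4% lower in all 4 rows, against 1 of 6 members higher and 2 lower. Among the genes of the lists, those that passed 2-fold here were Itgb1 (the β1 integrin chain) by 1.31 and Klf2 (a factor of T cell exit from the thymus) by 1.34 upward, and Cd4 by -1.16.

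**Figure D4:**
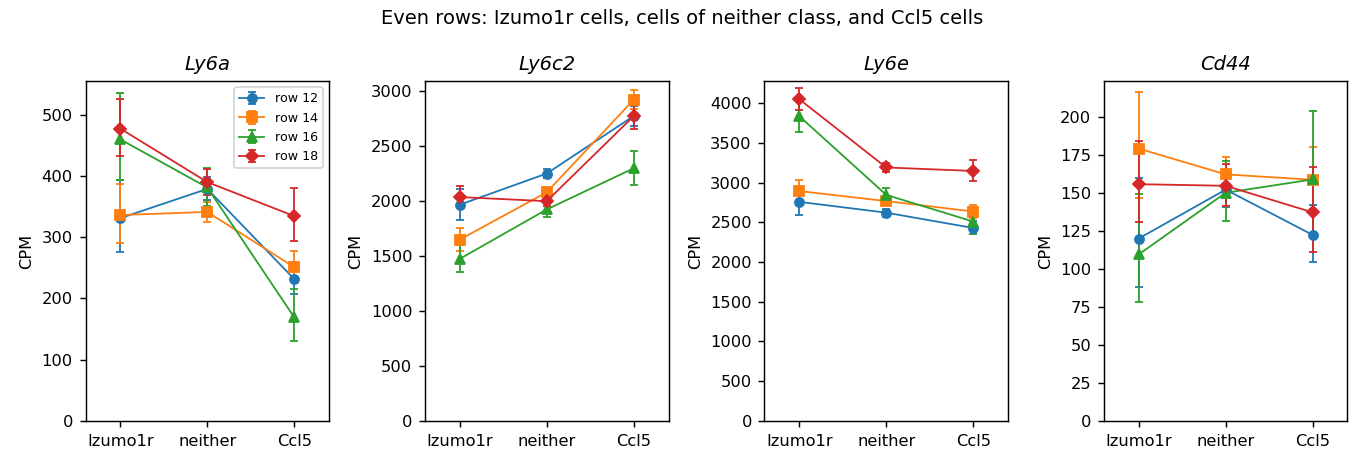
Levels of Ly6a, Ly6c2, Ly6e and Cd44 in the Izumo1r cells, the cells of neither kind and the Ccl5 cells of the even rows, in CPM from 0, with a line per hashtag row and 95% Poisson intervals. In every row Ly6c2 is higher and Ly6a and Ly6e are lower in the Ccl5 than in the Izumo1r cells.

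Even-row cells were also divided by the UMIs of 6 interferon-induced genes (Ifit1, Ifit3, Isg15, Irf7, Rtp4 and Usp18) summed in each cell: 3388 cells had none, 1991 had 1 to 3, and 379 had at least 4. Ly6a differed most among the members. It stood at 267, 265, 272 and 276 CPM in the cells with none and at 807, 827, 1049 and 859 CPM in the cells with at least 4, in rows 12, 14, 16 and 18. Cells between held 349 to 444 CPM, so the 3 groups did not overlap. The log2 difference of highest over none was 1.60, or 3.04-fold, and 1.56 to 1.91 in the single rows. Ly6a was the 1 member of 6 at least 2-fold higher by the rule of median and direction, as were 1.42% of 6527 genes, and 0.0153% were as far lower. After thinning, 60.1% of the highest cells and 34.5% of the cells with none had a Ly6a UMI (unthinned 70.4% and 43.9%, at median depths of 3584 and 3318 UMIs).

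Ly6c2 and Ly6e were higher in the same cells, to a lesser degree. Ly6c2 stood at 2277, 2194, 1756 and 1973 CPM in the cells with none and 2965, 2959, 2764 and 3159 CPM in the highest cells, a log2 difference of 0.54. For Ly6e the values were 2453, 2665, 2794 and 3138 CPM against 3281, 3364, 3594 and 3894 CPM, a difference of 0.35. At any size 7.54% of genes were higher in all 4 rows, against 3 of 6 members, all of the Ly6 family. Cd44 (-0.02) and Cd24a (-0.08) were each higher in 2 rows and lower in the other 2. The remaining 18 interferon-induced genes of the list, which did not choose the cells, were all at least 2-fold higher, with a median of 2.06 against -0.07 over all genes. Bst2 (tetherin) differed by 2.50 and Zbp1 (a nucleic acid sensor) by 2.71, so Ly6a lay below that median.

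**Figure D5:**
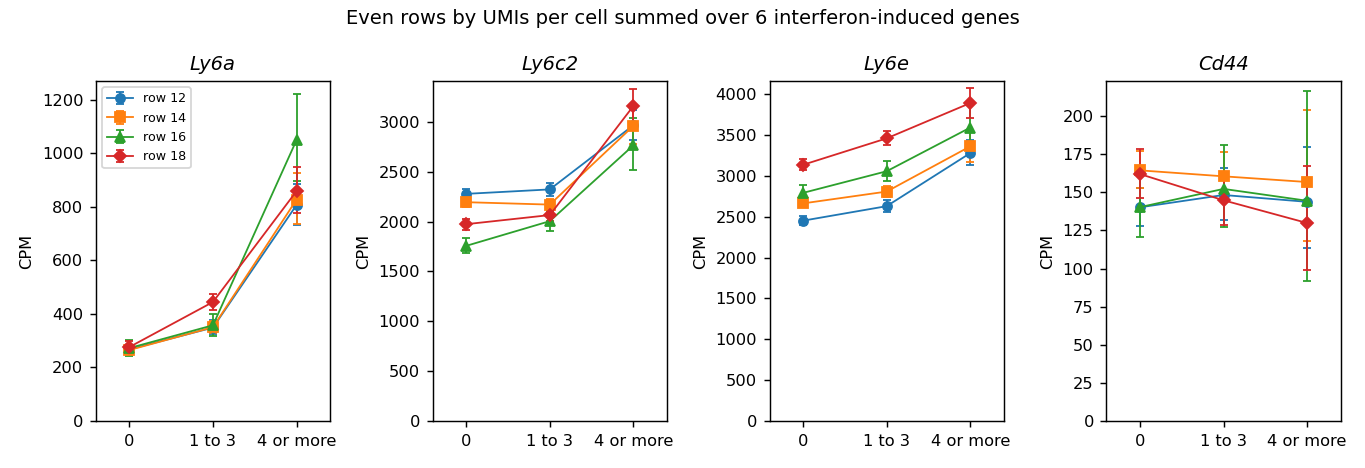
Levels of Ly6a, Ly6c2, Ly6e and Cd44 in even-row cells with 0, 1 to 3, or 4 or more UMIs over 6 interferon-induced genes, in CPM from 0, with a line per hashtag row and 95% Poisson intervals. Ly6a is about 270 CPM at 0 and between 807 and 1049 CPM at 4 or more, and Cd44 shows no common direction.

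The same split, added after the data had been seen, gave a higher Ly6a level in each class named here. It was not made in the even-row cells of neither kind. In the Cd79a cells Ly6a stood at 1283 to 1710 CPM over the rows in cells with none and 2561 to 3463 CPM in cells with at least 4. In the Cst3 cells the values were 25.1 to 44.7 CPM and 414 to 618 CPM, a wider relative gap than in the Cd79a cells. Pooled over rows, the Ccl5 cells held 182 CPM (165 to 200) and 705 CPM (612 to 808), and the Izumo1r cells 298 CPM (268 to 330) and 981 CPM (820 to 1165). Few early T cells were interferon-high: 23 Ikzf2 cells at 108 CPM (68.6 to 162), against 22.9 CPM (19.1 to 27.1) in those with none, and 17 Rag1 cells at 64.5 CPM (41.3 to 96.0), against 19.3 CPM (15.04 to 24.4). Those 23 Ikzf2 cells had a median of 10486 UMIs against 5072 in the Ikzf2 cells with none. The 17 Rag1 cells had a median of 21584 UMIs against 11701.5 in the Rag1 cells with none. These 17 cells are fewer than the minimum set for a class, and their share at equal depth was not computed. The part of doublets or depth in either gap was not tested. Ly6e in the same Ikzf2 cells was 2415 CPM (2211 to 2633) against 1298 CPM (1269 to 1327).

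In single cells of the even rows, a Ly6c2 UMI was about as common with as without Ly6a. At equal depth, 83.0% of 2036 cells with a Ly6a UMI and 83.6% of 3170 cells without one had a Ly6c2 UMI. The share with Ly6c2 was higher beside Ly6a in rows 16 and 18 and lower in rows 12 and 14. The mean thinned count of Ly6c2 was 4.68 with Ly6a and 4.39 without, and was higher with Ly6a in all 4 rows. Ly6e averaged 6.28 thinned UMIs in cells with Ly6a and 5.50 in cells without, and was higher in all 4 rows. Cd44 was found in 25.2% and 26.6% of these cells, and in 26.0% of cells with and 26.6% of cells without Ly6c2.

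Over the 8 classes, the order of Ly6a levels was Cd79a, Izumo1r, neither, Ccl5, Cst3, remaining, Ikzf2 and Rag1 cells, where the steps after Cd79a, after neither and after Cst3 were clear of overlap. For Ly6c2 the order was Ccl5, neither, Izumo1r, Cd79a, Cst3, remaining, Ikzf2 and Rag1, with overlap between neither and Izumo1r, between Cst3 and remaining, and between Ikzf2 and Rag1. Ly6e gave a flat order from Izumo1r (median 3365 CPM) to the remaining cells (2090 CPM), each overlapping the next, with the Ikzf2 cells (1483 CPM) apart at the end. In Cd44 the Cd79a cells and the 3 even-row classes overlapped, followed by Cst3, the remaining and Ikzf2 cells, and the Rag1 cells last. Ly6c1 was highest in the Rag1 cells, at 7.34 to 13.3 CPM, but every step in its order overlapped.

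Genes whose levels followed each member most closely over 32 groups of row and class, among 5874 genes, are given as a description. The groups share 1 library, the rows of a class are alike, and no p is given. For Ly6a they were Ctsc (cathepsin C; r = 0.97), Ifi27l2a (0.95) and Irgm1 (0.95), of which the last 2 are interferon-induced. For Ly6c2 they were Rabac1 (0.99), St3gal6, a sialyltransferase gene (0.96), and Cxcr3, a chemokine receptor gene (0.96). Ly6e had weaker partners, led by Cnp (0.84) and Lgals3bp (0.80). Cd44 was closest to Bhlhe40, Sh3bgrl3 and B2m, each at 0.98, and Cd24a to Marcks (0.98), Aldh2 (0.98) and Tspan13 (0.97). Between members, r was highest for Ly6a and Cd44 (0.88) and for Ly6c2 and Cd44 (0.87). It was 0.77 for Ly6a and Ly6c2, 0.74 for Ly6a and Ly6e, and -0.82 for Ly6c2 and Cd24a.

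Other genes of the Ly6 superfamily were mostly not detected at a usable level. Of 29 in the data, 2 reached 20 CPM in the comparison of rows, and both were lower in the even rows. Ly6d, known from early B lineage cells, stood at 549 to 850 CPM in the odd rows and 47.6 to 67.0 CPM in the even rows (log2 difference -3.41). The Rag1 cells held a median of 781 CPM of Ly6d and the Ikzf2 cells 310 CPM. Ly6k differed by -1.75. Ly6g, the neutrophil antigen, had 2 UMIs in all odd rows and none in the even rows, where a count of 0 allows up to 0.146 CPM, the level of 3 UMIs.

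Around Cd44 and Cd24a, the lists gave mixed directions between even and odd rows. Of 6 tested genes that make or bind hyaluronan or link CD44 to the cytoskeleton, Msn (moesin) was higher by 1.02 and Itgb1 by 1.10, and Hmmr, a hyaluronan receptor that is also a mitosis gene, was lower by 1.66. Of genes for CD24 partners, 2 were tested and both were lower, Siglecg by 2.09 and the kinase gene Lyn by 1.45, and both were also higher in the Cd79a than in the Ikzf2 cells. Of 21 tested maturation genes, 12 were at least 2-fold higher and 6 lower, with a median of 1.13 against -0.08 over all genes. The widest were Klrb1c by 4.79, Il7r (the IL-7 receptor) by 3.98, Il2rb (IL-2 receptor β) by 3.35 and Cxcr3 by 3.33. The NK1.1 protein that Klrb1c encodes was part of the sort, so its difference is not independent of the gates. Those lower included Ccr9, a chemokine receptor gene of thymocytes, by 1.95. Of 23 tested interferon-induced genes, 8 were at least 2-fold higher in the even rows and none lower, with a median of 0.80.

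Cells of the Cd79a class stood against the Ikzf2 cells of the same rows in 4 members: Ly6a by 6.14 (70.6-fold), Ly6c2 by 4.75, Cd44 by 2.96 and Ly6e by 1.10, each higher in all 4 rows. Cd24a differed by 0.04. This comparison was added after the data had been seen, and 7.99% of 7424 genes were at least 2-fold higher and 16.3% lower. At any size 15.3% were higher and 63% lower in all 4 rows. In the Cd79a cells 18 of 22 tested interferon-induced genes were also at least 2-fold higher.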

How the data were processed

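Thymocytes of 8 hashtagged populations were measured in 1 gene library and 1 hashtag library. The authors made the deposited UMI counts with Cell Ranger 6.0.0 on mm10, and the counts are not normalized. Per the study's methods the CD1d tetramer stain was poor in this sort, and B, myeloid and other thymic cells were found among the sorted cells. The members and lists were chosen with earlier results of these data known.

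Cells needed at least 1000 genes, at most 5% mitochondrial UMIs, and at least 80% of at least 10 hashtag UMIs on 1 of the rows 11 to 18, which held 99.9% of hashtag UMIs. This left out 2140 barcodes of mixed or weak hashtag. Doublets within a hashtag were not called, and a limit of 4000 genes was an alternative. Groups were summed to CPM. Ratios are of medians over rows between even and odd rows, and medians of row-wise ratios within rows, on log2(CPM + 10), for genes of at least 20 CPM and classes of at least 20 cells. Shares were recomputed after thinning each cell to 2000 UMIs. Intervals are exact Poisson or Clopper-Pearson, computed in Python 3.11.15 with numpy 2.4.6, scipy 1.17.1 and pandas 2.3.3. The genes named are the members, the class genes, genes of fixed lists, and the 3 genes most correlated with each member over groups of at least 50 cells, among genes reaching 50 CPM. Jchain was chosen after its values were seen. The calling step was tested on simulated data. Gene positions are from GENCODE on GRCm38 and promoters from RefSeq. No deposited column was left out. The results for some listed genes are not reported here.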

Additional observations from a re-analysis of the deposited data

Results flagged for a closer look

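The 4 rows of each member and class were compared, in 72 groups, for a row far from the other 3, by Dixon's ratio. Chance flags about 1 in 20 groups, and 4 were found. Ly6e in the Ikzf2 cells was 1622 CPM in row 11, against 1467 to 1485 CPM in the other odd rows. Ly6c2 in the Ikzf2 cells was 22.9 CPM in row 15, against 34.4 to 35.8 CPM. Cd44 in the remaining cells of the odd rows was 31.8 CPM in row 11, against 14.02 to 16.1 CPM. Ly6c1 in the interferon-high cells was 0 in row 16, against 8.55 to 9.34 CPM, on few UMIs.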

How the results depend on the processing

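The count of members at least 2-fold apart, with all rows in the same direction, was 3 between even and odd rows, 1 for the interferon split and 0 in the other 3 planned comparisons. Of the recomputed counts, 67 stayed within 1.5 times that and 6 did not. For Ikzf2 against Rag1 cells it became 1 with at most 4000 genes per cell, 1 with per-cell means, 1 with cells thinned to 2000 UMIs, 1 with classes called on thinned counts and 2 with a pseudocount of 1 CPM. Those 2 were Cd44 (1.44) and Ly6c1 (-1.13), both under the 20 CPM limit, which these recomputed counts did not apply. For the remaining against the Ikzf2 cells it became 2 with classes called on thinned counts. The cause was not tested. Leaving out each row in turn gave 3, 0, 0, 0 and 1, as with all rows. Of single member values, 394 moved by less than the spread of rows and 44 by more, and none that was called changed sign. The Ly6a difference between even and odd rows ran from -0.84 to 3.43 over all settings and from -0.53 to 0.09 when 1 row was left out. No paired analysis was possible because the hashtag rows could not be matched to the replicate numbers of the labels. Classes within a kind of row were compared row by row, with no test. Depth limits Ly6c1 throughout, and Cd44 and Ly6a in the Rag1 and Ikzf2 cells.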
